A study of Drosophila melanogaster with 54 samples.

Results

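The comparison asks whether the response of a gene to temperature differs between BEAF-32 knockdown heads and control heads of Drosophila melanogaster. It uses 12 of the 54 samples of the series, all 12 libraries of the deposited BEAF-32 count table, in 4 groups of 3. The groups were knockdown heads at 29 °C, knockdown heads at 18 °C, control heads at 29 °C and control heads at 18 °C. Knockdown flies carried a UAS RNA interference transgene against BEAF-32 together with actin5C-gal4, a driver active in nearly all cells. Control flies carried actin5C-gal4 alone, so they lacked the transgene as well as the knockdown. Their genotype label is wild type, and the strain label of both genotypes is YW. Flies of both genotypes were reared at 25 °C, and as newly emerged adults they spent 3 days at 29 °C or 18 °C with 12 h of light a day. The sex of the flies and the time of day of collection were not stated. Heads hold many tissues, and in such bulk samples fewer cells of a type and less RNA per cell cannot be told apart. The labels do not state whether replicates within a group were taken from different cultures or animals. The p-values therefore measure only the spread between these 12 libraries, which may be technical.

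BEAF-32 binds DNA at the borders of chromatin domains, often close to the start sites of paired housekeeping genes, and is one of the insulator proteins of the fly. Flies do not hold their own body temperature, and their head transcriptome, which covers eye, brain, fat body, muscle and cuticle, shifts within days of a change in ambient temperature. GAL4 is known to drive its targets more strongly in warmer flies, so a knockdown by this system can itself depend on temperature.

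BEAF-32 had 2.65, 2.75 and 0.516 CPM (counts scaled to a common library size) in knockdown heads at 29 °C and 1.62, 2.69 and 3.502 CPM in knockdown heads at 18 °C, against 32.8, 35.6 and 35.2 CPM in control heads at 29 °C and 32.2, 34.5 and 39.1 CPM in control heads at 18 °C. Every knockdown library lay below every control library, and the knockdown libraries of both temperatures overlapped. Its temperature change did not pass the test of a difference between the genotypes, with a log2 difference of -0.29 ± 0.42 (edgeR adjusted p = 0.823).

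Total counts ran from 2905211 to 7146191 per library, at which 3 counts, the floor used here for a count of 0, correspond to 0.407 to 1.01 CPM. Within a group, log CPM values correlated at 0.978 to 0.988 across genes. Of the defining markers of the head, ninaE, the main rhodopsin of the eye, was at 12993 to 21882 CPM in knockdown libraries and 11719.7 to 22609 CPM in control libraries, and elav of neurons, repo of glia and Hml of hemocytes were above the floor in all 12. Differences in this report are the log2 fold change of 29 °C over 18 °C in knockdown heads minus the same in control heads. A positive difference therefore means a more positive temperature change in knockdown heads, and "called" means an edgeR quasi-likelihood test with a Benjamini-Hochberg adjusted p under 0.05 over 9056 tested genes.

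Some libraries stood apart in ways that cut across the groups. Os-C, an odorant-binding protein gene of the antenna, was at 0 CPM in all 3 knockdown libraries at 29 °C, at 0, 30.0 and 24.5 CPM in knockdown heads at 18 °C, at 23.5, 0 and 0 CPM in control heads at 29 °C and at 0 CPM in all 3 control libraries at 18 °C. Replicates 2 and 3 of the knockdown at 18 °C and replicate 1 of the control at 29 °C were thus the only libraries with a count of it. Obp83a, Obp83b and a10, also genes of the antenna, were highest in these 3 libraries, at 8.16 to 69.0 CPM, and at 0.187 to 5.67 CPM in the other 9. Snmp1 and lush, further genes of the antenna, followed this only in the knockdown at 18 °C, with replicates 2 and 3 above replicate 1. In the control at 29 °C Snmp1 was at 3.26, 4.79 and 4.31 CPM and lush at 3.88, 2.80 and 5.24 CPM. The sum of 180 odorant, taste and ionotropic receptor genes there was 57.3, 55.7 and 60.8 CPM. Separately, roX1, a noncoding RNA of the male dosage compensation complex, was low for its group at 113 CPM in replicate 1 of the knockdown at 29 °C and at 54.2 CPM in replicate 2 of the control at 18 °C, against 205 to 257 CPM and 143 to 191 CPM in the other libraries of those groups. In the knockdown at 18 °C roX1 was at 102, 138 and 110 CPM, so roX1-low here means low against other libraries of the same group. In both roX1-low libraries roX2 was also lowest, and the yolk protein genes Yp1, Yp2 and Yp3 highest, within the group. The female marker fit was lowest in its group in the first of them and highest in the second. The sum of 34 testis and accessory gland genes was 60.1 CPM in replicate 3 of the knockdown at 29 °C and 8.77 to 19.5 CPM in the other libraries. The share of each sex was not tested. Counts below are given with all 12 libraries and, where it matters, without the 3 antennal-high libraries, without the 2 roX1-low libraries, or without all 5. Single genes are given mostly without the 3 or the 2. Leaving out the 3 or all 5 keeps 1 library of the knockdown at 18 °C. A call lost there does not show that a gene depends on the libraries left out.

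**Figure D1:**
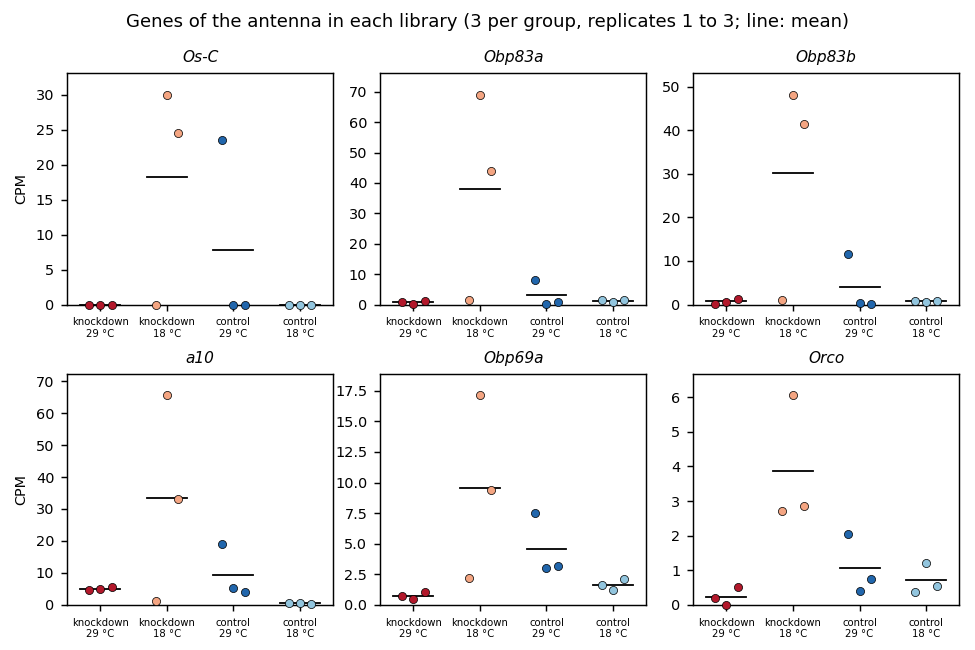
CPM (vertical axes) of 6 genes of the antenna in the 12 libraries; each point is 1 library, in the order of replicates 1 to 3 within a group, and the line is the group mean. Replicates 2 and 3 of the knockdown at 18 °C and replicate 1 of the control at 29 °C stand above the rest in every panel but that of Orco, with 30.0, 24.5 and 23.5 CPM for Os-C, which is at 0 CPM in the other 9 libraries.

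Temperature changed the transcriptomes of both genotypes in largely the same direction. In knockdown heads 3216 genes (35.5%) were called between 29 °C and 18 °C, against 3440 (38%) in control heads. These 2 comparisons share no library. Across the 9056 genes their log2 fold changes correlated at r = 0.673 (Spearman 0.726), as a description over genes, which are not replicates. Of 2252 genes called in both genotypes, 98.6% changed with the same sign and 31 changed in opposite directions.

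A subset of genes departed from that shared response. The difference was called for 209 of 9056 genes (2.31%), 126 of them positive (1.39%) and 83 negative (0.917%), with a ratio of at least 2 either way for 73. At an unadjusted p under 0.05 there were 1274 genes. The median difference over all genes was -0.001 on the log2 scale. Called genes with a positive difference were well expressed, with a median of 87.4 CPM, against 37.4 CPM for those with a negative difference and 19.6 CPM for all genes tested. Without the 3 antennal-high libraries 80 genes were called (42 positive, 38 negative), without the 2 roX1-low libraries 157 (113 and 44), and without all 5 of them 129 (76 and 53). Single libraries moved the count as well: 122 genes were called without control 29 °C replicate 3 (76 positive) and 138 without knockdown 29 °C replicate 3. The negative count of 83 was 48 to 52 without any 1 library of the knockdown at 29 °C, 42 or 46 without replicate 1 or 3 of the control at 29 °C, and 50 or 54 without replicate 1 or 3 of the control at 18 °C. In every alternative setting in which they were tested, the 209 genes kept the sign of their difference, and 97 of them (68 positive, 29 negative) were called whichever single library was left out.

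**Figure D2:**
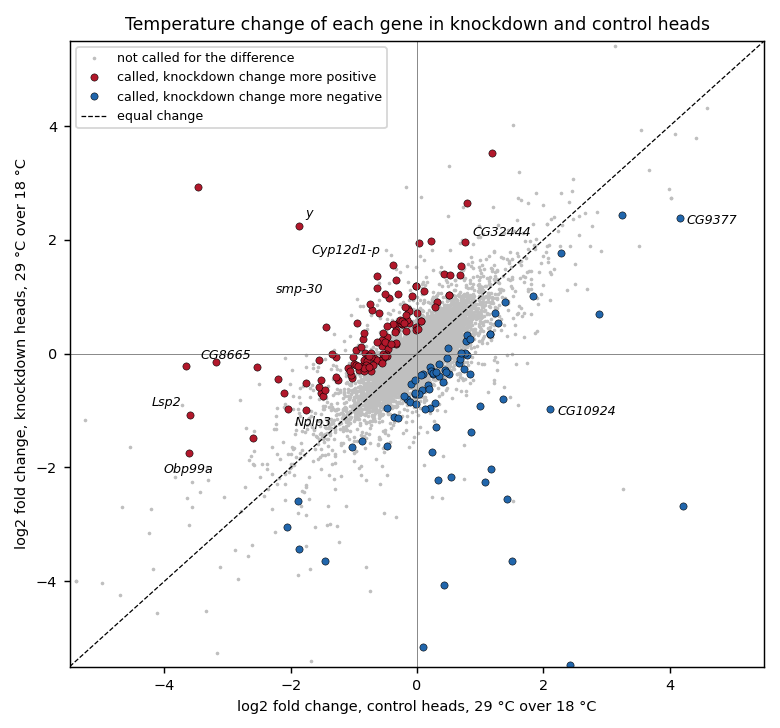
Log2 fold change of 29 °C over 18 °C in knockdown heads (vertical) and control heads (horizontal), 1 point per tested gene, with genes called for the difference in colour; 11 genes, 6 of them called, lie outside the axes at 5.5. Most points follow the diagonal of equal change (r = 0.673), while the 126 genes with a positive difference lie above it and the 83 with a negative one below.

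The positive difference most often came with a fall in control heads that knockdown heads did not share. Of the 126 genes, 24 fell at 29 °C in knockdown heads and 57 rose, against 18.9% and 16.6% of all genes, while in control heads 87 fell and 11 rose, against 19.8% and 18.2% of all genes. By pairs of calls, 45 genes were not called in knockdown heads and fell in control heads, 28 rose in knockdown heads alone, 24 fell in both, 18 rose in knockdown heads and fell in control heads, and 11 rose in both. Read by genotype, 47 of the 126 were higher and 13 lower in knockdown than control heads at 29 °C, where 14.7% of all genes were called in either direction. At 18 °C, where 14.1% of all genes were called, 4 were higher and 90 lower in knockdown heads, against 7.5% of all genes lower there. All of these contrasts come from the libraries that gave the difference, so the counts describe its form and are no further evidence for it.

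Of the 83 genes with a negative difference, 57 fell and 10 rose at 29 °C in knockdown heads, while 38 rose and 9 fell in control heads. Over all genes 18.9% fell and 16.6% rose in knockdown heads, and 18.2% rose and 19.8% fell in control heads. At 29 °C 36 of the 83 were lower and 3 higher in knockdown than control heads, against 7.56% and 7.14% of all genes, and at 18 °C 50 were higher and 5 lower, against 6.63% and 7.5%.

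The pentose phosphate pathway branches off glycolysis at glucose 6-phosphate and yields NADPH, which fat synthesis and antioxidant defence use, and sugars for nucleotides. Of its 7 genes in a list written after values were seen, 6 were called, all positive, against 1.39% of all genes. The median difference was 0.79, against -0.001 over all genes. In knockdown heads 5 of the 7 rose at 29 °C and none fell, while in control heads 4 fell and none rose. Over all genes 16.6% rose in knockdown heads and 19.8% fell in control heads. Without the 3 antennal-high libraries 3 of the 7 were called and the median was 0.72. Between 3 and 5 were called with any single library left out, namely 3 without knockdown 29 °C replicate 2, knockdown 18 °C replicate 3, control 29 °C replicate 1 or 3, or control 18 °C replicate 3.

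Pgd encodes 6-phosphogluconate dehydrogenase, which makes NADPH. It had 254, 240.3 and 258 CPM in knockdown heads at 29 °C and 222, 206 and 198 CPM in knockdown heads at 18 °C, against 139, 112 and 123 CPM in control heads at 29 °C and 225, 244 and 208 CPM in control heads at 18 °C. In knockdown heads the warm libraries lay wholly above the cold ones, and in control heads wholly below them, with log2 fold changes of 0.26 in knockdown and -0.86 in control heads. Their difference was 1.12 ± 0.13 (edgeR adjusted p = 3.28e-05), a ratio of 2.18. Taldo, transaldolase, had 548, 613 and 537 CPM in knockdown heads at 29 °C and 312, 307 and 222 CPM in knockdown heads at 18 °C, against 528, 472 and 442 CPM in control heads at 29 °C and 488, 546 and 494 CPM in control heads at 18 °C. Here the cold knockdown libraries alone were low, below all the others, and the control libraries of both temperatures overlapped. The difference was 1.10 ± 0.15 (edgeR adjusted p = 0.000216). CG8036, which the reference lists under the synonym Transk for transketolase, had 524, 546 and 504 CPM in knockdown heads at 29 °C and 395, 359 and 334 CPM in knockdown heads at 18 °C, against 590.0, 547 and 529.7 CPM in control heads at 29 °C and 638, 665 and 688 CPM in control heads at 18 °C. Warm and cold libraries were apart in both genotypes, in opposite order, and the difference was 0.79 ± 0.11 (edgeR adjusted p = 0.000282). These 3 genes were called in all 23 alternative settings.

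The other 3 called genes of the pathway, named to complete the list, rested on less. Zw, glucose 6-phosphate dehydrogenase and the entry step of the pathway, fell in control heads alone, with a difference of 0.74 ± 0.20 (edgeR adjusted p = 0.0489). CG17333 (current symbol Pgls, 6-phosphogluconolactonase) differed by 0.50 ± 0.12 (edgeR adjusted p = 0.0367) and CG30499 (current symbol Rpe, ribulose phosphate epimerase) by 0.86 ± 0.22 (edgeR adjusted p = 0.0401). Without the antennal-high libraries, which leaves 1 cold knockdown library, none of the 3 was called, at differences of 0.67, 0.40 and 0.72. With single libraries left out, Zw was called in 2 of the 12 settings, CG17333 in 4 and CG30499 in 4, with adjusted p up to 0.154, 0.144 and 0.148 (edgeR). Rpi, ribose 5-phosphate isomerase, was the member not called, at 0.44 ± 0.15 (edgeR adjusted p = 0.144).

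**Figure D3:**
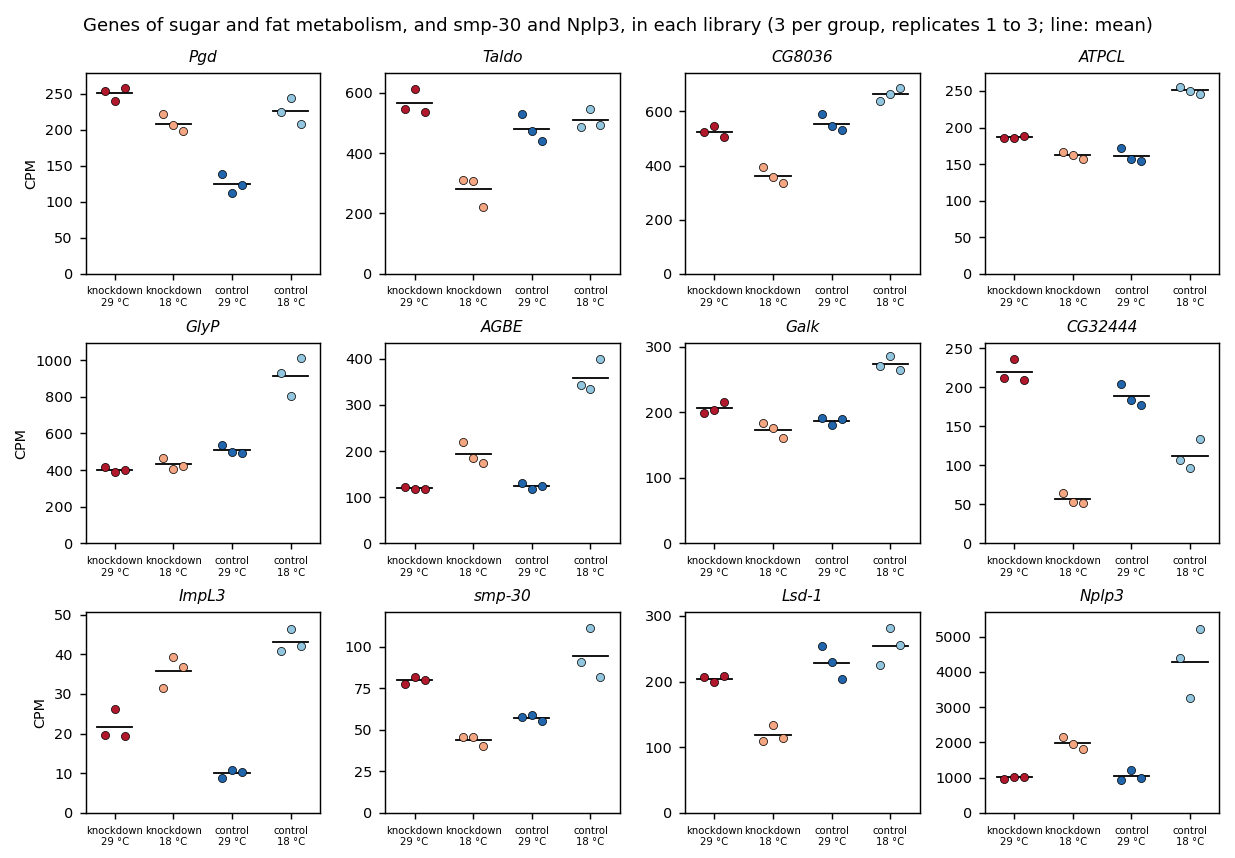
CPM (vertical axes, from 0) of 12 genes with a positive difference in the 12 libraries; each point is 1 library, in the order of replicates 1 to 3 within a group, and the line is the group mean. For most of them, such as Pgd at 112 to 139 CPM in warm and 208 to 244 CPM in cold control heads, the warm control libraries lie below the cold ones, while the 2 knockdown groups lie closer together or in the opposite order.

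Genes that store and mobilise glycogen, the polymer that holds glucose in fat body, muscle and glia, were also among the positive calls. Of 5 genes in a list also written after values were seen, 3 were called, all positive, against 1.39% of all genes. Their median was 0.50. GlyP, glycogen phosphorylase, which releases glucose from glycogen, had 414, 389.7 and 398 CPM in warm and 466, 405 and 421 CPM in cold knockdown heads, against 539, 499 and 494 CPM in warm and 928, 802 and 1011 CPM in cold control heads. Control heads at 18 °C stood far above the other 3 groups, and the knockdown libraries of both temperatures overlapped. The log2 fold change was -0.10 in knockdown heads and -0.84 in control heads, a difference of 0.74 ± 0.12 (edgeR adjusted p = 0.00153), which was 0.66 without the antennal-high libraries (edgeR adjusted p = 0.0595). AGBE, the branching enzyme of glycogen synthesis, had 122, 117 and 118 CPM in warm and 219, 186 and 174 CPM in cold knockdown heads, against 132, 118 and 124 CPM in warm and 342, 335 and 399.8 CPM in cold control heads. It fell at 29 °C in both genotypes. The warm libraries of the genotypes overlapped, and every cold knockdown library was below every cold control library. The difference was 0.83 ± 0.13 (edgeR adjusted p = 0.000824). UGP, which makes the UDP-glucose that glycogen is built from, differed by 0.50 ± 0.12 (edgeR adjusted p = 0.0317) and was called in 5 of the 12 settings with 1 library left out (edgeR adjusted p up to 0.0909), and not without the antennal-high or the roX1-low libraries, at 0.44 and 0.48. GlyS, glycogen synthase, was not called at 0.22 ± 0.12 (edgeR adjusted p = 0.411).

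Galactose enters glycolysis through the Leloir pathway. Of its 4 listed genes (list written after values were seen) 3 were called, all positive, against 1.39% of all genes. The median was 0.73. CG32444, whose synonyms in the reference name an aldose 1-epimerase, had 212, 236 and 209.8 CPM in warm and 64.9, 52.5 and 51.9 CPM in cold knockdown heads, against 205, 183 and 177 CPM in warm and 106, 97.0 and 134 CPM in cold control heads. It rose in both genotypes, by a log2 fold change of 1.96 in knockdown and 0.75 in control heads, and its difference was 1.20 ± 0.16 (edgeR adjusted p = 0.000123). Galk, galactokinase, had 198, 203 and 216 CPM in warm and 184, 176 and 160.2 CPM in cold knockdown heads, against 191, 179.9 and 189 CPM in warm and 270.0, 285 and 265 CPM in cold control heads. The knockdown libraries were higher in the warm and the control libraries higher in the cold, without overlap in either genotype, and the difference was 0.80 ± 0.11 (edgeR adjusted p = 0.000207). Galt, the uridylyltransferase of the pathway, differed by 0.66 ± 0.13 (edgeR adjusted p = 0.00713), or 0.66 without the antennal-high libraries (edgeR adjusted p = 0.0687).

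In glycolysis itself, the main route from glucose to pyruvate, 5 of 14 genes were called, all positive, against 1.39% of all genes. Of the 14 differences 13 were above 0, with a median of 0.25. ImpL3 (current symbol Ldh), lactate dehydrogenase, had 19.7, 26.2 and 19.3 CPM in warm and 31.4, 39.4 and 36.8 CPM in cold knockdown heads, against 8.77, 10.8 and 10.3 CPM in warm and 40.7, 46.3 and 42.1 CPM in cold control heads. It fell at 29 °C in both genotypes, and further in control heads, where the warm libraries were the lowest of the 12. The difference was 1.41 ± 0.19 (edgeR adjusted p = 0.000207). Gapdh1, an isoform of glyceraldehyde 3-phosphate dehydrogenase, differed by 0.58 ± 0.11 (edgeR adjusted p = 0.0052) and Eno, enolase, by 0.50 ± 0.10 (edgeR adjusted p = 0.0091). Hex-C, a hexokinase, and Pgi, glucose 6-phosphate isomerase, which were named to complete the list, differed by 0.52 ± 0.11 and 0.43 ± 0.10 (edgeR adjusted p = 0.00918 and 0.0265). Pgi was called in 5 of the 12 settings with 1 library left out (edgeR adjusted p up to 0.0817). Pfk, phosphofructokinase and the main control step, was not called, with a difference of 0.05 ± 0.11 (95% interval -0.19 to 0.29). Without the antennal-high libraries, which leaves 1 cold knockdown library, the median was 0.21. It was 0.23 without all 5 libraries that stood apart.

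Glycerol 3-phosphate links glycolysis to fat synthesis and to the respiratory chain. Its cytosolic dehydrogenase Gpdh (current symbol Gpdh1) differed by 0.57 ± 0.11 (edgeR adjusted p = 0.00525) and the mitochondrial one, Gpo-1, by 0.72 ± 0.16 (edgeR adjusted p = 0.0178). Without the antennal-high libraries the differences were 0.42 and 0.83, the second larger than with all libraries, and neither was called (edgeR adjusted p = 0.189 and 0.112). Gpo-1 was also not called without the roX1-low libraries, at 0.54 (edgeR adjusted p = 0.0978), or without knockdown 29 °C replicate 1 or control 29 °C replicate 3 (edgeR adjusted p up to 0.0692). Tps1, which makes trehalose, the blood sugar of insects, differed by 0.54 ± 0.12 (edgeR adjusted p = 0.0127), and was not called without control 29 °C replicate 3 (edgeR adjusted p = 0.0532), the antennal-high or the roX1-low libraries, at 0.61 and 0.49 without these. Treh, which splits trehalose, had the opposite sign and no call, -0.30 ± 0.12 (edgeR adjusted p = 0.247).

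Of 7 tested genes of fatty acid synthesis, in a list written after values were seen, 2 were called, ATPCL and Dbi, both positive, with a median of 0.28. Of 19 tested genes of the fat body 3 were called positive and 2 negative. Over all genes 1.39% were called positive and 0.917% negative. ATPCL, ATP citrate lyase, makes the cytosolic acetyl-CoA that fatty acids are built from. It had 185, 186 and 189 CPM in warm and 166, 163 and 157 CPM in cold knockdown heads, against 172, 157 and 154 CPM in warm and 256, 250.3 and 246 CPM in cold control heads. The 3 cold control libraries stood above all others, and the difference was 0.85 ± 0.10 (edgeR adjusted p = 8.03e-05). Dbi (current symbol Acbp2), an acyl-CoA-binding protein, differed by 0.84 ± 0.16 (edgeR adjusted p = 0.00525), or 0.59 without the antennal-high libraries (edgeR adjusted p = 0.157). The enzymes that use the acetyl-CoA were not called: ACC, acetyl-CoA carboxylase, differed by 0.26 ± 0.11 (95% interval 0.02 to 0.49) and FASN1, fatty acid synthase, by 0.06 ± 0.12 (95% interval -0.19 to 0.32). Lsd-1, a perilipin that coats lipid droplets, had 207, 199 and 208 CPM in warm and 110.1, 134 and 114 CPM in cold knockdown heads, against 254, 229 and 204 CPM in warm and 225, 282 and 255 CPM in cold control heads. Its cold knockdown libraries were the lowest of the 12, and its warm and cold control libraries overlapped, with a difference of 0.93 ± 0.14 (edgeR adjusted p = 0.000507).

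**Figure D4:**
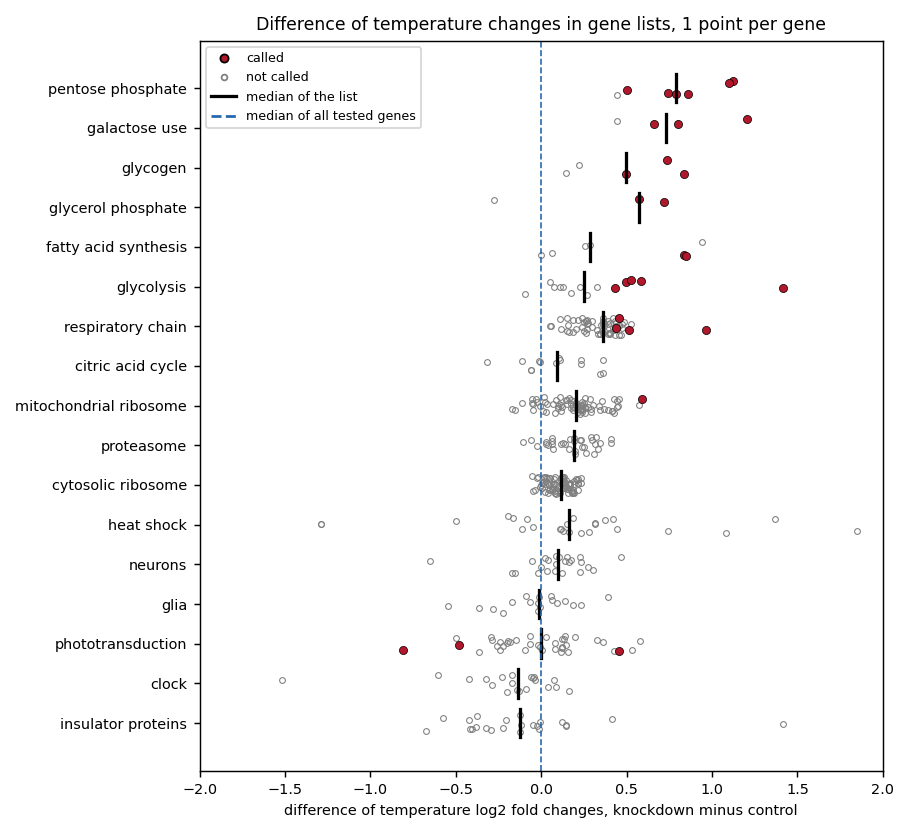
Difference of the temperature log2 fold changes, knockdown minus control (horizontal axis), for the tested members of 17 gene lists, 1 point per gene, with called genes filled and the median of each list as a bar. The 6 lists of sugar and fat use at the top have medians of 0.25 to 0.79, but 5 of them, all but glycolysis, were written after their values were seen and are a description of chosen genes. The respiratory chain lies to the right of 0 as a whole, and heat shock, neurons, glia, clock and insulator proteins hold no called gene.

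Most respiratory chain subunits are encoded in the nucleus and imported into mitochondria, where the chain drives ATP synthesis. Of 69 tested genes 4 were called, all positive, against 1.39% of all genes called positive. The estimates of all 69, called or not, lay above 0, from 0.05 to 0.97, with a median of 0.36. At an unadjusted p under 0.05 there were 52, against 1274 of all 9056 genes tested. Between the temperatures 17 of the 69 fell and 4 rose at 29 °C in knockdown heads, where 18.9% of all genes fell and 16.6% rose, while 60 fell and 1 rose in control heads, where 19.8% of all genes fell and 18.2% rose. At 29 °C 40 of the 69 were higher in knockdown than control heads and none lower, against 7.14% and 7.56% of all genes. At 18 °C none were higher and 6 lower, against 6.63% and 7.5% of all genes, so the count of lower ones was near the background. The median difference was 0.31 for complex I, 0.29 for complex II, 0.35 for complex III and 0.39 for complexes IV and V. CG34172 (current symbol COX7AL2), a complex IV subunit, had 129, 119 and 125 CPM in warm and 191, 201 and 169 CPM in cold knockdown heads, against 62.2, 82.7 and 62.5 CPM in warm and 202, 169.5 and 241 CPM in cold control heads. Its warm control libraries were the lowest of the 12, and the difference was 0.97 ± 0.17 (edgeR adjusted p = 0.00221). The other called subunits were ND-B18 of complex I at 0.51 ± 0.13, and cype and COX7A of complex IV at 0.46 ± 0.12 and 0.44 ± 0.12 (edgeR adjusted p = 0.0412, 0.0475 and 0.0476). With single libraries left out these were called in 3, 1 and 2 of the 12 settings, while CG34172 was called in all 12.

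The number of called subunits depended strongly on the libraries and the tool, and the median did not. It was 34 of 69 without control 18 °C replicate 2, the library lowest in roX1, and 2 of 69 without control 29 °C replicate 2. It was 1 of 69 without any 1 library of the knockdown at 29 °C, without knockdown 18 °C replicate 3, or without replicate 1 or 3 of either control group. DESeq2 called 31 and limma voom 24. By edgeR none was called without the antennal-high libraries, where 31 of 70 had an unadjusted p under 0.05, 67 of 70 differences were above 0 and the median was 0.31. Over all single libraries left out, the median lay between 0.29 and 0.44. Under library totals alone it was 0.33, with the median of all genes at -0.043.

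**Figure D5:**
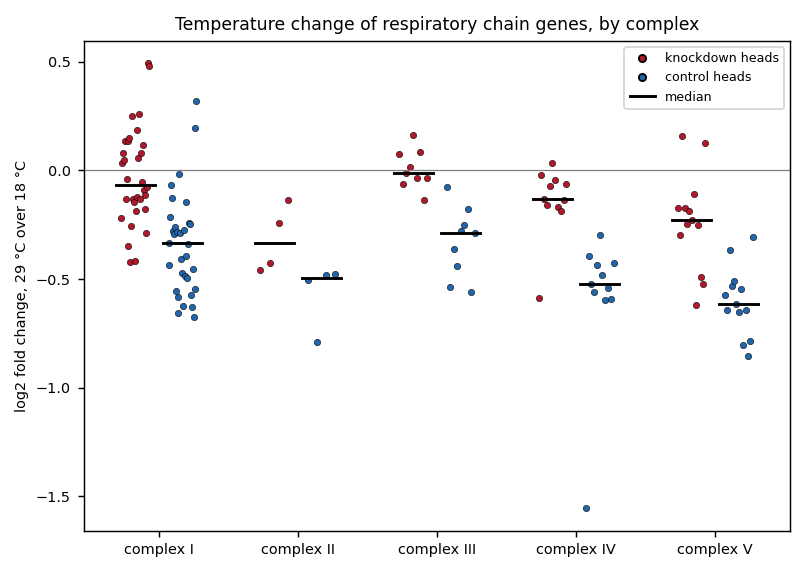
Log2 fold change of 29 °C over 18 °C (vertical axis) of 69 respiratory chain genes by complex, in knockdown and control heads, 1 point per gene and genotype, with medians as bars. In every complex the knockdown median lies above the control median, at -0.11 against -0.47 over all 69 genes.

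Of 75 mitochondrial ribosomal protein genes 1 was called (1.33%, against 2.31% of all genes tested), mRpL49, and the median difference was 0.20. mRpL49 rose at 29 °C in both genotypes and differed by 0.59 ± 0.15 (edgeR adjusted p = 0.0361), and it was called in 3 of the 12 settings with 1 library left out (edgeR adjusted p up to 0.15). By edgeR, DESeq2 and voom no gene of the citric acid cycle was called out of 14, with a median of 0.09, and none of 33 proteasome genes, with a median of 0.19. At an unadjusted p under 0.05 edgeR gave 5 and 10, against 1274 of all 9056 genes tested. With single libraries left out the median of the citric acid cycle ran from 0.04 to 0.15. For cytosolic ribosomal proteins, of which 82 of 84 rose in knockdown heads and 81 of 84 in control heads, no difference was called by the 3 tools, none had an unadjusted p under 0.05 by edgeR, and the median was 0.12, or 0.04 without control 18 °C replicate 2 and -0.01 without both roX1-low libraries.

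Several other genes with a positive difference had small adjusted p-values. smp-30, a regucalcin-like gene known for its response to cold acclimation, had 77.6, 81.7 and 80.2 CPM in warm and 45.7, 45.8 and 40.1 CPM in cold knockdown heads, against 57.5, 58.7 and 55.4 CPM in warm and 90.8, 112 and 82.0 CPM in cold control heads. The order of the temperatures was opposite in the 2 genotypes, without overlap. The log2 fold change was 0.87 in knockdown heads and -0.74 in control heads, a difference of 1.61 ± 0.14 (edgeR adjusted p = 1.45e-06). CG8665 had 30.1, 28.6 and 33.8 CPM in warm and 35.7, 33.3 and 38.5 CPM in cold knockdown heads, against 9.59, 6.59 and 10.1 CPM in warm and 51.0, 44.4 and 58.9 CPM in cold control heads. The warm control libraries were the lowest of the 12, and the knockdown libraries of both temperatures overlapped, with a difference of 2.29 ± 0.20 (edgeR adjusted p = 1.28e-06). CG3699 differed by 1.79 ± 0.20 (edgeR adjusted p = 3.02e-05), with a rise in knockdown and a fall in control heads. Prat2, a first-step enzyme of purine synthesis, rose in knockdown and fell in control heads, with a difference of 0.96 ± 0.12 (edgeR adjusted p = 8.03e-05). Of the other 8 tested genes of purine synthesis 1, ade2, named after its value was seen, was called in the opposite direction, at -0.68 ± 0.18 (edgeR adjusted p = 0.0438), and in 3 of the 12 settings with 1 library left out. CG6084 (current symbol Akr1B), an aldo-keto reductase, differed by 1.23 ± 0.16 (edgeR adjusted p = 0.000105) and CG9914 (current symbol Had1) by 1.32 ± 0.17 (edgeR adjusted p = 0.000123). All of these but ade2 were called in every alternative setting that tested them.

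Some genes with a large positive difference had low levels in 1 of the groups. y, which makes the yellow protein of dark cuticle pigment, had 14.9, 22.8 and 21.1 CPM in warm and 4.87, 4.38 and 3.28 CPM in cold knockdown heads, against 0.204, 0.799 and 0.936 CPM in warm and 2.35, 2.85 and 1.88 CPM in cold control heads. Warm knockdown libraries were far above the rest and warm control libraries at or near the floor. At 29 °C y was higher in knockdown heads by a log2 fold change of 4.85 (edgeR adjusted p = 1.34e-09). With warm control libraries this low, fitted values of y depend on the prior count. The strain label of both genotypes is YW, and its bearing on y was not tested. The difference was 4.11 ± 0.52 (edgeR adjusted p = 0.000105), and it was called in all 22 settings that gave an adjusted p. CG5999 (current symbol Ugt37A3), a UDP-glycosyltransferase, had 4.92, 7.28 and 9.28 CPM in warm and 9.19, 5.05 and 9.63 CPM in cold knockdown heads, against 0.408, 0.2 and 1.31 CPM in warm and 7.96, 8.69 and 9.11 CPM in cold control heads. Only the warm control libraries were low, and 2 of the 3 were below the floor, so the fitted difference of 3.44 ± 0.53 (edgeR adjusted p = 0.00066) depends on the prior count and gives no bound. Cyp12d1-p and Cyp12d1-d are neighbouring, nearly identical cytochrome P450 genes of the mitochondrion, among which reads may be split. They rose in knockdown heads and differed by 1.93 ± 0.24 and 2.00 ± 0.36 (edgeR adjusted p = 8.03e-05 and 0.00318). arg, arginase, rose in knockdown heads alone, with a difference of 1.91 ± 0.33 (edgeR adjusted p = 0.00221).

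Genes of abundant secreted proteins were among the positive calls. Obp99a, an odorant-binding protein made in and outside the antenna, had 546, 502 and 535 CPM in warm and 2096, 1553 and 1661 CPM in cold knockdown heads, against 96.1, 69.5 and 57.8 CPM in warm and 617, 899 and 1228 CPM in cold control heads. It fell at 29 °C in both genotypes without overlap, by 3.36-fold in knockdown and 12.3-fold in control heads, and the difference was 1.87 ± 0.26 (edgeR adjusted p = 0.000216). It was 1.85 without the antennal-high libraries (edgeR adjusted p = 0.00562). Nplp3, a neuropeptide-like precursor, had 974, 1024 and 1029 CPM in warm and 2148, 1965 and 1821 CPM in cold knockdown heads, against 937, 1212 and 976 CPM in warm and 4396, 3262 and 5209 CPM in cold control heads. The warm libraries of the 2 genotypes overlapped, and in the cold the knockdown libraries were all lower, with a difference of 1.07 ± 0.18 (edgeR adjusted p = 0.00151) that was 0.88 without the antennal-high libraries (edgeR adjusted p = 0.111). Lsp2, a larval serum storage protein of the fat body, differed by 2.52 ± 0.47 (edgeR adjusted p = 0.00439), or 1.58 without the antennal-high libraries (edgeR adjusted p = 0.121).

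Immune peptides moved both ways. Of 32 tested genes 3 were called positive and 2 negative, against 1.39% and 0.917% of all genes, and the median was -0.11. That median was -0.41 without control 18 °C replicate 2, -0.39 without knockdown 18 °C replicate 2 and 0.008 without replicate 3 of the knockdown at 18 °C. Def, the fly defensin, had 61.1, 66.8 and 66.2 CPM in warm and 66.2, 34.7 and 38.5 CPM in cold knockdown heads, against 18.4, 17.2 and 20.4 CPM in warm and 47.2, 35.4 and 75.03 CPM in cold control heads. The warm control libraries were the lowest of the 12, and the ranges of the other 3 groups overlapped, with a difference of 1.91 ± 0.31 (edgeR adjusted p = 0.0011), or 1.40 without the antennal-high libraries (edgeR adjusted p = 0.0831). DptB, a diptericin of the Imd pathway, had 108, 182 and 76.3 CPM in warm and 109.8, 64.0 and 229 CPM in cold knockdown heads, against 6.12, 4.99 and 5.80 CPM in warm and 15.9, 50.6 and 94.1 CPM in cold control heads. The warm control libraries were again the lowest of the 12. The difference of 3.04 ± 0.73 (edgeR adjusted p = 0.0284) was called in 6 of the 12 settings with 1 library left out (edgeR adjusted p up to 0.0915), and not without the antennal-high libraries, where it was larger at 3.42 (edgeR adjusted p = 0.0841). Drsl3, a drosomycin-like gene, differed by 0.83 ± 0.18 (edgeR adjusted p = 0.0122), or 0.71 without the antennal-high libraries (edgeR adjusted p = 0.198), and its adjusted p was 0.0503 without control 29 °C replicate 3.

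The negative calls were bomanins, peptides induced through the Toll pathway. CG5778 (current symbol BomT3) had 671, 899 and 904 CPM in warm and 1557, 1057 and 1207 CPM in cold knockdown heads, against 837, 859.8 and 869 CPM in warm and 749, 697 and 811 CPM in cold control heads. Its cold knockdown libraries were the highest of the 12, and it fell at 29 °C in knockdown heads alone, with a difference of -0.81 ± 0.17 (edgeR adjusted p = 0.0107), or -0.62 without the roX1-low libraries (edgeR adjusted p = 0.0608). CG15065 (current symbol BomS5), another bomanin, named to complete the list, differed by -1.17 ± 0.28 (edgeR adjusted p = 0.0276). PGRP-LB, which degrades bacterial peptidoglycan and damps the Imd pathway, differed by -1.08 ± 0.25 (edgeR adjusted p = 0.0228). Neither CG15065 nor PGRP-LB was called without the roX1-low libraries, at -0.97 and -1.01. Without the antennal-high libraries CG15065 was called at -1.52 (edgeR adjusted p = 0.0012) and PGRP-LB was not, at -0.71 (edgeR adjusted p = 0.444). They were called in 4 and 6 of the 12 settings with 1 library left out. The number of called negative members of the list ranged widely with the libraries. It was 11 of 33 without knockdown 18 °C replicate 2, 10 of 33 without the 3 antennal-high libraries and 0 of 33 by edgeR without the roX1-low libraries, and 1 after removal of replicate 1 or 3 of the knockdown at 29 °C, replicate 1 of the knockdown at 18 °C, replicate 3 of the control at 18 °C or any 1 library of the control at 29 °C. Positive members numbered 6 of 33 without control 18 °C replicate 1 and 1 of 33 without control 29 °C replicate 3 or without the roX1-low libraries, and there were none without the antennal-high libraries.

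Cuticle genes were also divided, with 3 positive and 2 negative calls among 37, against 1.39% and 0.917% of all genes. CG16885 (current symbol Vajk2) had 51.8, 38.7 and 35.6 CPM in warm and 56.5, 59.9 and 57.3 CPM in cold knockdown heads, against 17.5, 23.2 and 16.3 CPM in warm and 92.3, 62.3 and 113 CPM in cold control heads. The warm control libraries were the lowest of the 12, and the difference was 1.75 ± 0.25 (edgeR adjusted p = 0.000314). Lcp65Ac, a cuticle protein, differed by 1.50 ± 0.29 (edgeR adjusted p = 0.00536), or 1.45 without the antennal-high libraries (edgeR adjusted p = 0.137). Lcp65Ag2 and Cpr67B, named after their values were seen to complete the list, differed by 1.35 ± 0.28 and -0.44 ± 0.11 (edgeR adjusted p = 0.0107 and 0.0446), and were called in 11 and 2 of the 12 settings with 1 library left out, and neither without the antennal-high libraries, at 0.87 and -0.33. Cpr72Ec, a cuticle protein with a chitin-binding domain, had 396, 420.1 and 364 CPM in warm and 85.4, 64.3 and 67.4 CPM in cold knockdown heads, against 675, 619 and 523 CPM in warm and 66.2, 59.0 and 65.9 CPM in cold control heads. It rose at 29 °C in both genotypes, to a lower level in knockdown heads without overlap, with a difference of -0.81 ± 0.15 (edgeR adjusted p = 0.00485).

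Of 38 genes of light detection 1 was called positive and 2 negative, against 1.39% and 0.917% of all genes. Their median was -0.004, and -0.03 to 0.05 with single libraries left out. inaF-D, which shares reads with the overlapping inaF-B and cannot be told apart from it, lies in the inaF locus needed for the TRP channel of photoreceptors. It had 524, 508 and 477 CPM in warm and 425, 372 and 388 CPM in cold knockdown heads, against 514, 601 and 559 CPM in warm and 245, 247 and 258 CPM in cold control heads. It rose at 29 °C in both genotypes, and the cold libraries alone were apart by genotype, with a difference of -0.81 ± 0.11 (edgeR adjusted p = 0.000241). trpl, the second light-gated channel, had 825, 794 and 821 CPM in warm and 415, 446 and 436 CPM in cold knockdown heads, against 1461, 1486 and 1409.7 CPM in warm and 551, 529.9 and 579.6 CPM in cold control heads. Knockdown libraries were below control libraries at both temperatures, and the difference of -0.48 ± 0.10 (edgeR adjusted p = 0.0121) was -0.42 without the antennal-high libraries (edgeR adjusted p = 0.206). Gbeta76C, the G protein beta subunit of the cascade, differed by 0.46 ± 0.11 (edgeR adjusted p = 0.0338), and it was called in 3 of the 12 settings with 1 library left out (edgeR adjusted p up to 0.111).

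Among other genes with a negative difference, CG10924 (current symbol Pepck2), a phosphoenolpyruvate carboxykinase gene, had 7.57, 6.31 and 10.3 CPM in warm and 18.7, 10.4 and 16.6 CPM in cold knockdown heads, against 2.24, 2.20 and 2.81 CPM in warm and 1.27, 0.136 and 0.268 CPM in cold control heads. It fell at 29 °C in knockdown heads and rose in control heads, from a cold control level at or near the floor in 2 of 3 libraries. The fitted difference, which depends on the prior count, was -3.08 ± 0.62 (edgeR adjusted p = 0.00743), and -2.41 without the roX1-low libraries (edgeR adjusted p = 0.0608). CG43448 had 3.59, 4.37 and 5.16 CPM in warm and 12.2, 13.8 and 16.6 CPM in cold knockdown heads, against 17.3, 20.0 and 19.7 CPM in warm and 16.8, 16.2 and 15.3 CPM in cold control heads. The warm knockdown libraries were the lowest of the 12, with a difference of -1.96 ± 0.24 (edgeR adjusted p = 7.82e-05) that was called in every alternative setting that tested it. CG34136 fell in knockdown and rose in control heads and differed by -1.92 ± 0.27 (edgeR adjusted p = 0.000251), and CG9377, which rose 5.21-fold in knockdown and 17.9-fold in control heads, by -1.78 ± 0.30 (edgeR adjusted p = 0.00144). CG13044 fell in both genotypes, and further in knockdown heads, with a difference of -2.20 ± 0.44 (edgeR adjusted p = 0.00806).

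Lists of regulatory genes held single calls, where 2.31% of all genes tested were called. Thor, the translation repressor 4E-BP, which insulin and TOR signalling hold in check, had 425, 351 and 350.0 CPM in warm and 588, 593 and 663 CPM in cold knockdown heads, against 363, 346 and 311 CPM in warm and 328, 351 and 364 CPM in cold control heads. The cold knockdown libraries were the highest of the 12 and the other 3 groups overlapped, with a difference of -0.68 ± 0.13 (edgeR adjusted p = 0.00439), or -0.56 without the antennal-high libraries (edgeR adjusted p = 0.138). It was the 1 gene called among 24 of insulin signalling. ash2, a subunit of the complexes that methylate histone H3 at lysine 4, had 36.7, 43.9 and 41.8 CPM in warm and 28.9, 28.6 and 27.1 CPM in cold knockdown heads, against 52.8, 52.9 and 58.2 CPM in warm and 21.9, 24.2 and 21.2 CPM in cold control heads. It rose at 29 °C in both genotypes, less in knockdown heads, with a difference of -0.74 ± 0.14 (edgeR adjusted p = 0.00503), or -0.80 without the antennal-high libraries (edgeR adjusted p = 0.0752), and it was the 1 gene called among 17 of H3K4 methylation. dsx, the sex determination factor doublesex, differed by -0.88 ± 0.20 (edgeR adjusted p = 0.0207) and was called in 7 of the 12 settings with 1 library left out, and not without the antennal-high libraries, at -0.76 (edgeR adjusted p = 0.333).

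Most genes of the antenna with a negative call were highest in the 3 antennal-high libraries. In replicate 1 of the knockdown at 18 °C, however, OS9 and Orco were at 15.7 and 2.70 CPM. In replicate 1 of the control at 29 °C they were at 15.5 and 2.04 CPM. OS9, Orco, Jhedup and GstE4 were each higher in replicate 1 of the knockdown at 18 °C than in any control library at 18 °C. Besides Os-C (edgeR adjusted p = 0.0193), a5, a10, Obp83a, Obp83b, Obp19a, Obp69a, OS9, Jhedup, GstE4 and Orco were called, with edgeR adjusted p of 0.0446, 0.00525, 0.0391, 0.018, 0.0344, 0.00144, 0.00864, 0.00375, 0.032 and 0.0229. Of the 31 tested odorant-binding protein genes, 52 being in the table, 6 were called negative, the sixth being Obp8a (edgeR adjusted p = 0.0339), named after its value was seen, and 1 of 29 was called negative without the 3 antennal-high libraries. Without those libraries Os-C, a5, Obp83a and Obp83b were no longer tested, since too few counts remained. Orco, the co-receptor of odorant receptors, was at 0.189, 0 and 0.516 CPM in warm and 2.70, 6.06 and 2.85 CPM in cold knockdown heads, against 2.04, 0.399 and 0.749 CPM in warm and 0.362, 1.22 and 0.536 CPM in cold control heads. Fold changes are not given for these genes. The low groups of most of them lie at or near the floor, but OS9 was at 4.73, 5.99 and 7.73 CPM in warm knockdown heads. The part that antennal tissue in single libraries has in other calls was not tested beyond the counts without those libraries.

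Several lists gave no called difference by edgeR. At an unadjusted p under 0.05 edgeR gave 1274 of all 9056 genes tested. None of 25 tested heat shock genes was called by edgeR (8 at an unadjusted p under 0.05), and 1, negative, by DESeq2 and by voom. Of the 25, 19 rose at 29 °C in knockdown heads and 17 in control heads, against 16.6% and 18.2% of all genes. Their median difference was 0.17. Hsc70-4, the constitutive chaperone with the highest level among them, averaged 2472 ± 278 CPM in warm and 1554 ± 113 CPM in cold knockdown heads, against 2499.8 ± 215 CPM in warm and 1519 ± 158 CPM in cold control heads (SD, n = 3 each), with a difference of -0.05 ± 0.14 (95% interval -0.34 to 0.24). None of 20 clock genes was called by edgeR (5 at an unadjusted p under 0.05) or DESeq2, and 1, negative, by voom. The median was -0.13, with 4 of 20 differences above 0, but -0.06 without knockdown 18 °C replicate 3 and -0.008, with 10 of 20 above 0, without the antennal-high libraries. vri, a repressor of Clk with the highest level of that list, averaged 83.1 ± 4.47 CPM in warm and 212 ± 7.52 CPM in cold knockdown heads, against 92.2 ± 5.17 CPM in warm and 200.4 ± 7.05 CPM in cold control heads (SD, n = 3 each), with a difference of -0.23 ± 0.11 (95% interval -0.46 to -0.002). No call was made by the 3 tools among 23 insulator and boundary protein genes (median -0.13), BEAF-32 included, 15 of the unfolded protein response (median -0.007), 24 neuronal genes (median 0.10) or 18 glial genes (median -0.02). At an unadjusted p under 0.05 edgeR gave 2, 1, 3 and 2 genes of these lists in the same order. With single libraries left out their medians ran from -0.20 to -0.09, from -0.07 to -0.007, from 0.04 to 0.18 and from -0.06 to 0.04. A miss of the threshold does not show that these genes responded alike. DESeq2 gave no adjusted p for BEAF-32, so it could not have called that gene.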

How the data were processed

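Poly(A) 3' end RNA-seq of heads was read as gene counts. The authors deposited the table as raw counts per gene. STAR, TopHat2 and the dm3 build are named per the submitters' processing notes, and the counter, its annotation and its strand setting are not given in the sources used here, so overlapping and antisense genes cannot be told apart. Of 16719 symbols in the table, 12673 matched the RefSeq table directly, 3478 by locus tag and 435 by synonym, and 133 did not match.

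A model of 4 groups was fitted to all 12 libraries with edgeR 4.0.16 in R 4.3.3 (quasi-likelihood test, TMM scaling, filterByExpr with a minimum count of 10 and total of 15). It left 9056 genes, and p-values were Benjamini-Hochberg adjusted over them with a threshold of 0.05. CPM values use TMM library sizes, and errors after ± on log2 differences are standard errors. The floor of 3 counts covers counting error only. The standard errors and intervals cover counting and fitting error and the spread between these 12 libraries, and nothing beyond them. The fit was tested on simulated data. The alternatives were RLE, upper-quartile or no scaling, no filter, a mean of at least 5 CPM, DESeq2 1.42.0, voom (limma 3.58.1), a replicate block, each library left out, and the 3, 2 and 5 libraries that stood apart left out.

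The comparison, members and lists were chosen with earlier results of these data known. Genes were named by a rule: BEAF-32, up to 12 of largest positive and of largest negative difference with a mean of at least 5 CPM, up to 10 of smallest adjusted p, up to 8 with opposite temperature changes, and up to 3 called members per list, or its most abundant member where none was called. The lists of pentose phosphate, glycogen, galactose, trehalose, glycerol phosphate, fatty acid and purine genes, and the names Zw, CG17333, CG30499, Hex-C, Pgi, CG15065, a5, Obp19a, Lcp65Ag2, Cpr67B, Obp8a and ade2, were added after their values were seen. The values of 1 listed gene are not reported here. Members that were not called were named to complete a list. Peak lists and promoter sequences were not used here.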

Additional observations from a re-analysis of the deposited data

Results flagged for a closer look

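The response to temperature differed between knockdown and control heads, by a test of the difference itself, for 209 of 9056 genes. The values below are the log2 fold change of 29 °C over 18 °C in knockdown heads minus the same in control heads, for the genes named by rule or to complete a list.

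In the pentose phosphate pathway the difference was 1.12 for Pgd, 1.10 for Taldo, 0.79 for CG8036, 0.74 for Zw, 0.50 for CG17333 and 0.86 for CG30499. For glycogen enzymes it was 0.74 for GlyP, 0.83 for AGBE and 0.50 for UGP. For galactose use it was 1.20 for CG32444, 0.80 for Galk and 0.66 for Galt. Glycolytic genes had differences of 1.41 for ImpL3, 0.58 for Gapdh1, 0.50 for Eno, 0.52 for Hex-C and 0.43 for Pgi. Glycerol phosphate and trehalose genes gave 0.57 for Gpdh, 0.72 for Gpo-1 and 0.54 for Tps1. Genes of fat metabolism gave 0.85 for ATPCL, 0.84 for Dbi and 0.93 for Lsd-1. Respiratory chain subunits and a mitochondrial ribosomal protein gave 0.97 for CG34172, 0.51 for ND-B18, 0.46 for cype, 0.44 for COX7A and 0.59 for mRpL49. Other positive differences by certainty were 1.61 for smp-30, 2.29 for CG8665, 1.79 for CG3699, 0.96 for Prat2, 1.23 for CG6084 and 1.32 for CG9914. Large positive differences were 4.11 for y, 3.44 for CG5999, 1.93 for Cyp12d1-p, 2.00 for Cyp12d1-d and 1.91 for arg. They were also 2.34 for CG4500 and 1.86 for CG8147. The values of y and CG5999 depend on the prior count, as their warm control libraries were at or near the floor. CG4500, at 0, 1.01 and 1.97 CPM in cold knockdown heads and so near the floor, was called in 5 of the 12 settings with 1 library left out, and its fitted value reached 8.23 under other settings. CG8147 was called in 8 of the 12 and was 0.99 without the roX1-low libraries (edgeR adjusted p = 0.0877), and it was not called by DESeq2 (adjusted p = 0.0556). Genes of secreted proteins gave 2.52 for Lsp2, 1.87 for Obp99a and 1.07 for Nplp3. Immune genes with a positive difference gave 3.04 for DptB, 1.91 for Def and 0.83 for Drsl3. Those with a negative one gave -0.81 for CG5778, -1.17 for CG15065 and -1.08 for PGRP-LB. Cuticle genes gave 1.75 for CG16885, 1.50 for Lcp65Ac, 1.35 for Lcp65Ag2, -0.81 for Cpr72Ec and -0.44 for Cpr67B. Genes of light detection gave -0.81 for inaF-D, -0.48 for trpl and 0.46 for Gbeta76C. Further negative differences were -3.08 for CG10924, -1.96 for CG43448, -1.92 for CG34136, -1.78 for CG9377 and -2.20 for CG13044. The value of CG10924 depends on the prior count, as stated above. Regulatory genes gave -0.68 for Thor, -0.74 for ash2 and -0.88 for dsx. The remaining negative values were -1.58 for Naam, -0.81 for GstZ2, -0.68 for ade2 and -1.15 for Obp8a. With 1 library left out Naam was called in 6 of the 12 settings and GstZ2 in 4. GstZ2 was -0.53 without the antennal-high libraries (edgeR adjusted p = 0.423) and as small as -0.37 in other settings.

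For genes of the antenna the edgeR adjusted p of the difference was 0.0193 for Os-C, 0.0446 for a5, 0.00525 for a10, 0.0391 for Obp83a, 0.018 for Obp83b, 0.0344 for Obp19a. It was 0.00144 for Obp69a, 0.00864 for OS9, 0.00375 for Jhedup, 0.032 for GstE4 and 0.0229 for Orco. Most of these genes were highest in the 3 libraries named above as high in antennal genes. Of those libraries 2 were in the knockdown at 18 °C and 1 in the control at 29 °C. OS9, Jhedup, GstE4 and Orco were also higher in the remaining knockdown library at 18 °C than in any control library at 18 °C.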

How the results depend on the processing

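The count of 209 called genes (126 positive, 83 negative) was 423 (254 and 169) with no filter on low counts, for which 13675 genes were tested. It was 80 (42 and 38) without the 3 antennal-high libraries, which leaves the knockdown at 18 °C with 1 library that is assumed to vary like the other groups, and 129 (76 and 53) without all 5 libraries that stood apart. Without the 2 roX1-low libraries the negative count was 44. With each library left out in turn the count ran from 122 to 250, the positive count from 76 to 169 and the negative count from 42 to 84. The cause was not tested. DESeq2 called 215 genes, 137 of them among the 209, with 71.2% positive, against 60.3%. It gave no adjusted p for some genes called by edgeR, among them CG8665, ImpL3, y, CG43448, dsx and PGRP-LB. The overlap and the positive share therefore compare unlike sets of genes. Scaling by RLE, upper quartile or totals gave 206, 197 and 184 calls, and voom 234. Replicate numbers did not pair the libraries: deviations of same-numbered libraries correlated at -0.113 to 0.027 across genes, and with the replicate number as a block 173 genes were called (108 and 65). Named genes lost calls mainly without the antennal-high libraries, and 35 of the 209 genes were called in every alternative. That count leaves out every gene that lacked an adjusted p in any setting, such as CG8665, y and CG43448. Depth limits genes near the floor of 0.407 to 1.01 CPM.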

Other observations

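Neighbours on the chromosome of called genes were themselves called in 20 of 410 cases (4.88%), leaving out genes that share reads, against 2.31% of all genes tested. They formed 10 pairs of called neighbours, of which 6 had differences of the same sign. The pairs with the same sign were Cyp12d1-p and Cyp12d1-d, nearly identical copies among which reads may be split, Obp83a and Obp83b, which move with the 3 antennal-high libraries, CR43051 and the snoRNA named after it, Lcp65Ag2 and Lcp65Ac, CG16704 and CG3513, and CG15449 and Mgstl. These counts describe the called genes, and no test was made of them.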
